A study of Mus musculus with 7 samples.

Results

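Of the 23413 gene symbols counted in single cells of the embryonic mouse cortex, 10 were taken as genes of the Notch pathway, and all 10 were measured. They were chosen by name: the receptors Notch1, Notch2 and Notch3, the ligands Dll1, Dll3 and Jag1, the receptor-modifying enzyme Mfng, and the transcriptional repressors Hes1, Hes5 and Hey1. Cells were dissociated from the cortices of 7 embryos of 1 litter at E18.5, with 1 library per embryo made by Seq-Well, a microwell method where bead barcodes mark cells and unique molecular identifiers (UMIs) mark transcripts. The 4 mutant embryos (replicates 10, 11, 12 and 17) were Emx1CreERT2;Ash1lfl/fl, and the 3 control embryos (replicates 14, 15 and 16) were Ash1lfl/fl without the Cre. The controls thus carried both floxed alleles too, and all embryos were exposed to tamoxifen through the dam (100 mg/kg at E10.5). The Cre is a tamoxifen-dependent recombinase driven by Emx1, a gene of dorsal telencephalic progenitors, so interneurons, vessel cells and microglia lie largely outside its lineage. Ash1l encodes a histone H3 lysine methyltransferase.

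Notch signalling passes between touching cells. A ligand of the Delta or Jagged family on one cell binds a Notch receptor on its neighbour, proteases then release the intracellular domain of the receptor, and that domain joins the DNA-binding protein RBPJ to switch on target genes, above all those of the Hes and Hey repressors. In the developing cortex this keeps radial glia, the neural stem cells, from differentiating, while the intermediate progenitors and newborn neurons beside them supply ligand. In vessels the same pathway acts between endothelial cells and the mural cells around them.

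The libraries held 7083225 to 11859209 UMIs. Cells were barcodes in which 500 genes or more were detected and mitochondrial transcripts made up no more than 10% of UMIs, which left 23005 cells, 2114 to 4285 per embryo, with median depths of 1241.5 to 2133 UMIs per cell; pairs of libraries shared 2 to 6 barcodes. Cells were sorted into gates by the number of markers of each of 8 lists with a UMI, and no pathway gene was a gate marker. Radial glia numbered 3624, intermediate progenitors 1624, excitatory neurons 7932 and interneurons 1171; endothelial cells (32), mural cells (61), oligodendrocyte precursors (42) and microglia (48) were few, and 36.8% of cells stayed ungated. In the radial glial gate 27.9% of cells also reached the minimum of another list. Levels are UMIs per 1000000 UMIs of the gate (CPM) in 1 embryo, with library sizes scaled by the TMM method of edgeR; summed marker lists, pooled small gates and the split by cell cycle are unscaled CPM. A pair of libraries of opposite genotype, control 16 and mutant 17, stood apart in the radial glial gate, with 10685 and 10396 CPM of the summed radial glial markers against 13316 to 15083 CPM in the other 5 and with the highest sums of excitatory neuron markers (1076 and 1066 CPM, against 706 to 842 CPM).

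Among the 4 large gates, transcripts of the 3 receptors were highest in radial glia. Notch1 ran from 133 to 277 CPM in the radial glia of the 7 embryos (median 244), from 50.0 to 105 CPM in intermediate progenitors (median 87.0), from 6.21 to 15.5 CPM in excitatory neurons (median 11.0) and from 19.3 to 49.2 CPM in interneurons (median 27.9). Within every embryo the order was radial glia, intermediate progenitors, interneurons, excitatory neurons. In the quasi-likelihood test of edgeR, with the embryo as a term and Benjamini-Hochberg adjustment over 9728 genes, Notch1 was 2.77-fold lower in intermediate progenitors than in radial glia (adjusted p = 9.51e-13) and a further 6.92-fold lower in excitatory neurons than in intermediate progenitors (adjusted p = 4.75e-17). Interneurons held 3.04-fold more than excitatory neurons (adjusted p = 7.99e-07).

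Notch2 fell off more steeply at the first step. It lay between 138 and 321 CPM in radial glia (median 263) but between 16.8 and 43.2 CPM in intermediate progenitors (median 19.0), with no overlap, an 8.85-fold difference (adjusted p = 1.44e-19, edgeR). Excitatory neurons, with 10.48 to 31.9 CPM, were 1.55-fold below intermediate progenitors (adjusted p = 0.0182), a difference that did not pass without mutant replicate 10 (adjusted p = 0.110), without cells that reached the minimum of 2 lists (adjusted p = 0.163) or in control embryos only (adjusted p = 0.394). Excitatory neurons and interneurons (5.08 to 27.8 CPM) did not differ beyond their spread (adjusted p = 0.638).

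Notch3, the receptor best known from the mural cells of vessels, had the fewest UMIs of the 3 receptors, with 395 over all kept cells, of which 247 fell in radial glia. The radial glia of the embryos held 15.8 to 46.0 CPM (median 33.4), and intermediate progenitors 0 to 6.21 CPM, a 12.9-fold lower level by the fit (adjusted p = 3.29e-11, edgeR). In interneurons 3 UMIs were counted in all, and 5 of 7 embryos had 0.

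**Figure D1:**
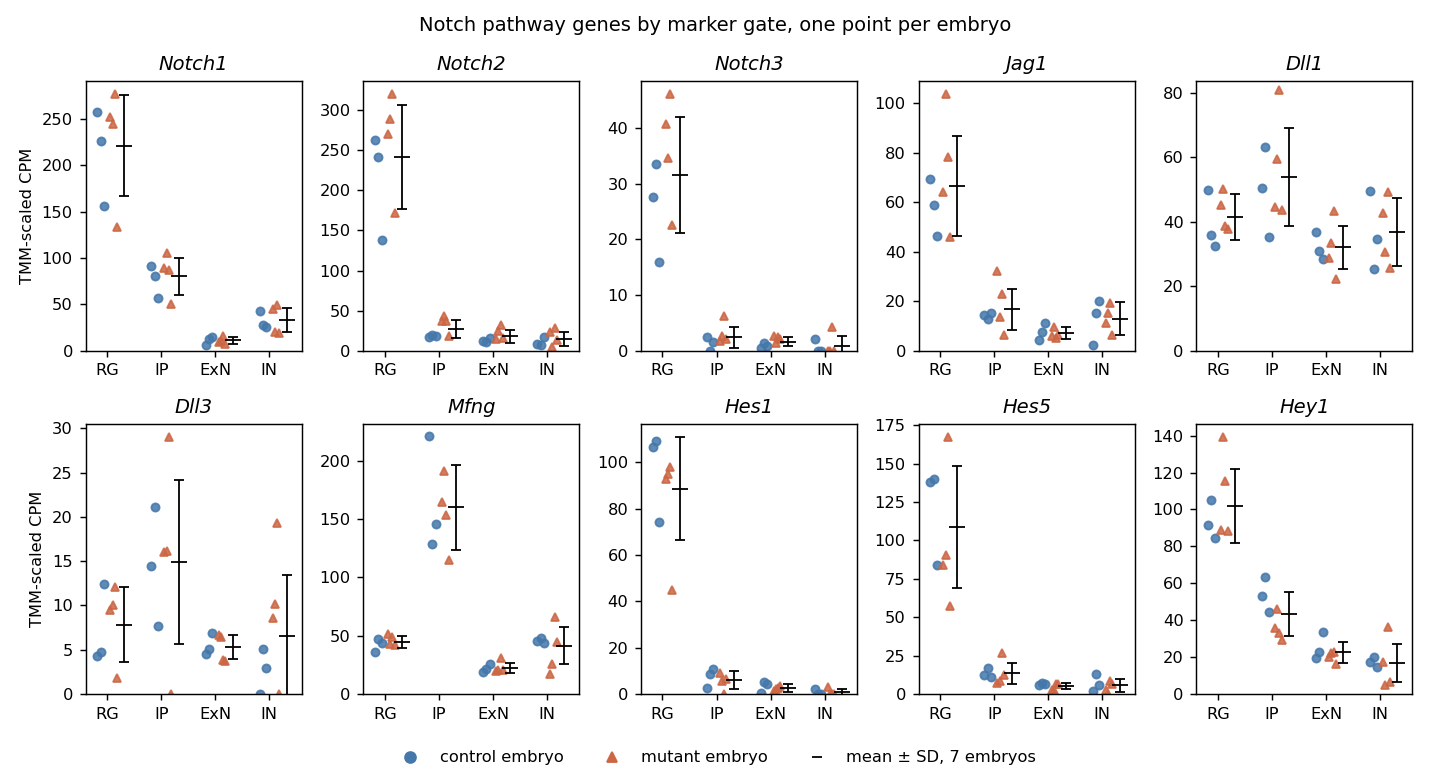
Level of each Notch pathway gene (y axis, TMM-scaled CPM, linear from 0) in radial glia (RG), intermediate progenitors (IP), excitatory neurons (ExN) and interneurons (IN); each point is 1 embryo and the bars are mean ± SD over 7 embryos. The receptors, Jag1 and the Hes and Hey genes are highest in radial glia, Mfng in intermediate progenitors (115 to 221 CPM), and Dll1 overlaps between all 4 gates.

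The 3 ligands differed in pattern. Jag1, a ligand of the Jagged type, was highest in radial glia, as the receptors were: radial glia held 45.8 to 104 CPM (median 64.2) and intermediate progenitors 6.25 to 32.1 CPM (median 14.4), without overlap and 3.80-fold lower (adjusted p = 5.70e-09, edgeR). Excitatory neurons held 4.22 to 11.1 CPM, 8.69-fold below radial glia (adjusted p = 3.69e-19).

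Dll1, the main Delta ligand of cortical neurogenesis, was present in all 4 large gates, with the highest median in intermediate progenitors. It ranged from 32.4 to 50.2 CPM in radial glia (median 38.8), from 35.3 to 80.8 CPM in intermediate progenitors (median 50.5), from 22.3 to 43.5 CPM in excitatory neurons (median 30.9) and from 25.3 to 49.7 CPM in interneurons (median 34.6). All 4 ranges overlapped. Intermediate progenitors exceeded radial glia in 6 of 7 embryos, by 1.30-fold (adjusted p = 0.0396, edgeR), and exceeded excitatory neurons in all 7, by 1.67-fold (adjusted p = 2.41e-05). The first of these differences was marginal: it did not pass with DESeq2 (adjusted p = 0.0682), nor without mutant replicate 12 (adjusted p = 0.243) or control replicate 15 (adjusted p = 0.105), and it passed in 8 of 17 alternatives. Radial glia exceeded excitatory neurons by 1.29-fold (adjusted p = 0.00674), in 6 of 7 embryos, but neither without cells that reached 2 lists (adjusted p = 0.227) nor in control embryos only (adjusted p = 0.207). Dll1 in microglia, where 0 of 132667 UMIs were counted, allows a level of up to 22.6 CPM there (3 counts; counting error only).

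Dll3, a Delta protein that acts inside the cell rather than on its neighbours, was sparse, with 318 UMIs in all kept cells. Its median was 16.1 CPM in intermediate progenitors, 9.44 CPM in radial glia and 5.10 CPM in excitatory neurons. It was higher in intermediate progenitors than in radial glia in 5 of 7 embryos, mutant replicate 17 had 0 in intermediate progenitors, and the gene fell under the filter on low counts between gates, so no test was made.

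Mfng, the Manic fringe glycosyltransferase, which adds a sugar to Notch receptors and so alters their response to ligands, was higher in intermediate progenitors than in radial glia, where the receptors were lower. Intermediate progenitors held 115 to 221 CPM (median 153) and radial glia 36.2 to 51.0 CPM (median 44.1), with no overlap between them. The difference was 3.54-fold in favour of intermediate progenitors (adjusted p = 1.55e-14, edgeR). Excitatory neurons held 18.6 to 30.5 CPM, 7.08-fold below intermediate progenitors (adjusted p = 8.38e-21) and also below radial glia (log2 difference −1.002, adjusted p = 4.29e-08). Interneurons, with 17.1 to 66.4 CPM, were 1.91-fold above excitatory neurons (adjusted p = 3.16e-04) and overlapped with radial glia.

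Of the repressors, Hes1 and Hes5 were nearly confined to radial glia among the 4 large gates in these sums. Hes1 had 44.9 to 109 CPM in radial glia (median 94.9), 0 to 10.8 CPM in intermediate progenitors and 0.248 to 5.10 CPM in excitatory neurons, and 2 UMIs in all interneurons. Its level was 13.6-fold lower in intermediate progenitors (adjusted p = 1.04e-13, edgeR) and 30.4-fold lower in excitatory neurons (adjusted p = 6.10e-23) than in radial glia. Hes5 had 57.5 to 167 CPM in radial glia (median 90.4), 7.14 to 26.9 CPM in intermediate progenitors (median 12.0) and 2.34 to 7.08 CPM in excitatory neurons. It was 7.95-fold lower in intermediate progenitors (adjusted p = 2.42e-16) and 18.9-fold lower in excitatory neurons (adjusted p = 2.11e-26). Hey1 declined less: radial glia held 84.7 to 139.5 CPM (median 91.5), intermediate progenitors 29.2 to 63.3 CPM (median 44.6) and excitatory neurons 16.1 to 33.8 CPM (median 22.4). These were steps of 2.34-fold (adjusted p = 4.17e-08) and 1.88-fold (adjusted p = 5.84e-05), each present in 7 of 7 embryos.

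Hes5 is shown with its promoter because it is a classical RBPJ target. Its log2 difference between intermediate progenitors and radial glia was −2.99. Hes1 (−3.76), Notch3 (−3.69) and Notch2 (−3.15) fell more steeply. The core RBPJ motif, TGGGAA on either strand, was searched in the 250 bases before the annotated start (RefSeq, GRCm38.p6). Of the pathway genes, 7 matched the RefSeq table, with 8 such windows, and the motif was in 1 of the 8, that of Hes5; 21.6% of all 32851 windows hold it. Hes1, Hey1 and Mfng were not analysed here. The window of Hes5 at chr4:154960673-154960922, plus strand, read 5′ to 3′ with the matches in capitals, is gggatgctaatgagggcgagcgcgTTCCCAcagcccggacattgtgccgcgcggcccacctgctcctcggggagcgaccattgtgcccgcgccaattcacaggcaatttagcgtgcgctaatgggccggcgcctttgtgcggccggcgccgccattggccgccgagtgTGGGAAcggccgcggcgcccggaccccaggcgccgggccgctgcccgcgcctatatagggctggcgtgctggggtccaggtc. The 2 matches begin 226 and 82 bases before the start and lie on opposite strands. The N-box CACNAG, a site bound by Hes proteins, was in 3 of the 8 windows (36.7% of all windows), and CAGCTG, an E-box bound by proneural factors, in 3 of 8 (13.0% of all), and the Hes5 window held neither. A match describes the sequence and was not set against any binding data.

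Counted over the pathway genes, 9 of 10 passed the filter between gates. Against radial glia, intermediate progenitors were higher for 2 (Dll1 and Mfng) and lower for 7, where 36.6% of all genes were called, 17.4% higher and 19.2% lower. Excitatory neurons were lower than radial glia for 9 of 9, with 64.7% of all genes called (31.8% lower), and lower than intermediate progenitors for 7 of 9, with 43.7% called (21.4% lower). The exceptions were Notch3 (adjusted p = 0.452) and Hes1 (adjusted p = 0.0530, past the threshold in 6 of 17 alternatives). Of the 7, Notch2 is given above, Jag1 did not pass in control embryos only (adjusted p = 0.180), and Hes5 did not pass there (adjusted p = 0.0682) or without cells that reached 2 lists (adjusted p = 0.0710). Interneurons exceeded excitatory neurons for 2, Notch1 and Mfng, and 7 did not pass (Jag1 passed in 2 of 17 alternatives), where 33.5% of all genes were called (16.3% higher). The median log2 difference of the 9 genes was −1.93 between intermediate progenitors and radial glia and −3.78 between excitatory neurons and radial glia. The gates were set by other genes of the same cells, so these tests compare marker-defined groups. The number of genes detected in a cell affects whether it reaches a gate.

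A wider list held 50 Notch pathway genes. Of the 37 that passed the filter, 6 were higher and 8 lower in intermediate progenitors than in radial glia, where 36.6% of all genes were called, and 11 were higher and 15 lower in excitatory neurons than in radial glia, where 64.7% were. Both counts are near the share over all genes. Among the modifying enzymes, Lfng (Lunatic fringe) fell by 3.84 on the log2 scale in intermediate progenitors and by 5.19 in excitatory neurons, whereas its relative Mfng was higher in intermediate progenitors than in the other 3 large gates. Among the targets, Id4 fell by 2.29 and Nrarp, a feedback inhibitor of the pathway, by 1.39 on the log2 scale in intermediate progenitors, while Hes6, a Hes relative that opposes Hes1 and is named here after its values were seen, was 0.78 higher there. Of the proteases, Adam17, which can cut the receptor, fell by 0.93 and Ncstn, a subunit of gamma-secretase, rose by 0.57 on the log2 scale in intermediate progenitors. In the nuclear complex, the coactivator Maml2 fell by 1.42 and Maml3 rose by 0.81 there. Numbl, a relative of the Notch antagonist Numb, was 0.95 higher on the log2 scale in intermediate progenitors. Cntn1, listed with the ligands, fell by 1.25 on the log2 scale in intermediate progenitors. In excitatory neurons Cntn1 and the ligand Jag2 were 1.31 and 1.14 higher, and the ubiquitin ligase Dtx1 1.07 higher, on the log2 scale than in radial glia. Other roles fell there. Of 10 nuclear complex genes tested, 7 were lower and 1 higher. Of 3 targets tested, 2 were lower and 0 higher, with a median log2 difference of −2.73.

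**Figure D2:**
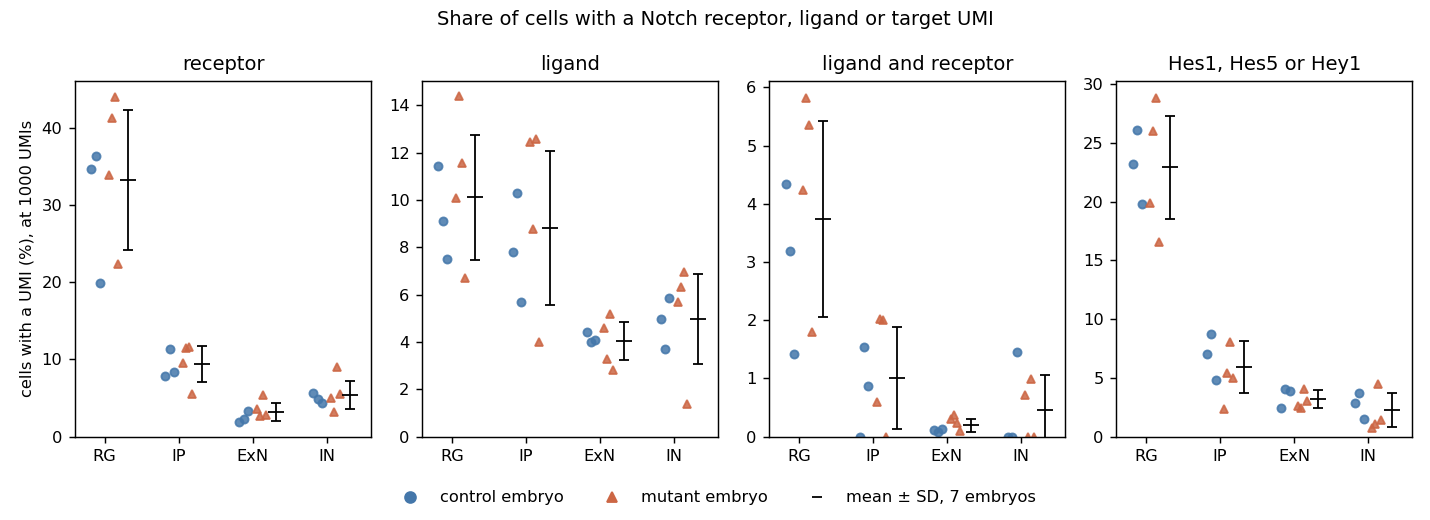
Percent of cells (y axis, linear from 0) with at least 1 UMI of a receptor (Notch1, Notch2 or Notch3), of a ligand (Dll1, Dll3 or Jag1), of both, or of Hes1, Hes5 or Hey1, after each cell was thinned to 1000 UMIs; points are embryos and bars are mean ± SD over 7 embryos. Receptor cells reach 33.2% of radial glia on average and at most 11.6% of intermediate progenitors in any embryo, whereas ligand cells average 10.1% of radial glia and 8.79% of intermediate progenitors.

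Per cell, receptors and ligands were seen in different proportions of the gates. Cells were thinned to 1000 UMIs each, and 870 radial glia, 356 intermediate progenitors, 935 excitatory neurons and 221 interneurons with fewer were left out. A receptor UMI was present in 33.2% ± 9.02 of radial glia (SD, n = 7 embryos), 9.35% ± 2.31 of intermediate progenitors, 5.37% ± 1.79 of interneurons and 3.13% ± 1.15 of excitatory neurons. A ligand UMI was present in 10.1% ± 2.63 of radial glia, 8.79% ± 3.25 of intermediate progenitors, 4.98% ± 1.89 of interneurons and 4.05% ± 0.803 of excitatory neurons. Radial glia thus held 3.73% ± 1.68 of cells with both, against 1.01% ± 0.871 of intermediate progenitors. A UMI of Hes1, Hes5 or Hey1 was present in 22.9% ± 4.37 of radial glia and 5.91% ± 2.19 of intermediate progenitors. Without thinning the pooled shares were 46.5% of radial glia for receptors and 16.7% for ligands, and 16.7% and 14.2% of intermediate progenitors. For comparison, of 37 microglia thinned in the same way, 0 had a ligand UMI, which allows a share of up to 8.11%, 3 (8.11%, 95% exact interval 1.70 to 21.9%) had a receptor UMI and 1 (2.70%) had a UMI of Hes1, Hes5 or Hey1. Their median depth before thinning was 2751 UMIs, against 1822.5 in radial glia. The ligand shares of both neuron gates lie under the microglial limit, so shares of this number of cells could not be told from background. The mean ligand shares of radial glia and intermediate progenitors lie above that limit, but each by less than its SD. Of all gated microglia 45.8% also reached another list. Pooled Dll1 was above the microglial limit of 22.6 CPM (27.8 CPM by the exact interval). It was 30.0 CPM (27.8 to 32.3) in excitatory neurons and 38.2 CPM (30.8 to 46.8) in interneurons. Pooled Jag1 and Dll3 were under that limit in both neuron gates. So were Jag1 (17.3 CPM) and Dll3 (14.7 CPM) in pooled intermediate progenitors and Dll3 (8.05 CPM) in pooled radial glia. Jag1 in pooled radial glia (64.7 CPM) was above it. Pooled microglia held 98.0 CPM each of Notch1 and Notch2, more than the 10.54 and 15.6 CPM of pooled excitatory neurons, so their receptor share gives no background level and receptor shares are given without one.

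Within radial glia, cells with at least 2 of 10 cell cycle markers were compared with the rest, without a test. Hes5 averaged 90.2 CPM ± 32.6 (SD, n = 7) in cycling and 120.5 CPM ± 47.4 in the other radial glia and was lower in cycling cells in 6 of 7 embryos. Hes1 went the other way, with 97.6 CPM ± 28.7 against 82.2 CPM ± 20.9, higher in cycling cells in 5 of 7. Hey1 was 104.9 CPM ± 23.4 against 100.1 CPM ± 22.4, higher in 4 of 7. Mfng was 37.5 CPM ± 6.80 against 49.3 CPM ± 8.18, also lower in 6 of 7, and Dll1 was 36.0 CPM ± 13.2 against 45.4 CPM ± 8.78, lower in 5 of 7. Notch1 and Notch2 gave 228 against 215 CPM and 240.4 against 244 CPM, each higher in cycling cells in 5 of 7 embryos. Among intermediate progenitors, by contrast, Notch1 was higher in cycling cells in 7 of 7 embryos, with 124 CPM ± 35.4 against 71.9 CPM ± 20.8. Hes5 was higher in cycling intermediate progenitors in 6 of 7 embryos, the reverse of radial glia. It averaged 27.2 CPM ± 31.3 (16 UMIs in all) against 10.7 CPM ± 3.21. Cycling intermediate progenitors numbered 18 to 40 per embryo. Cycling radial glia were deeper, with a median of 2017.5 UMIs against 1331, as were cycling intermediate progenitors (1836.5 against 1501.5). The part of depth in these values was not tested.

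Vessel cells had a receptor pattern of their own, from pooled counts of few cells. Mural cells held 68 Notch3 UMIs among 143661, which is 473 CPM (95% exact Poisson interval 368 to 600.1, counting error only), present in libraries of 7 of 7 embryos. This compares with 31.1 CPM over the pooled radial glia. Notch3 was detected in 14 of 46 thinned mural cells (30.4%, 95% exact interval 17.7 to 45.8%) and in 2.98% of radial glia. Mural cells also held Notch1 (223 CPM, 152 to 314) and Jag1 (167 CPM, 107 to 249) but 48.7 CPM of Notch2 (19.6 to 100.4), and 0 UMIs of Hes5 and Dll3, which allows up to 20.9 CPM. In endothelial cells Notch1 stood at 139.5 CPM (8 UMIs, interval 60.2 to 275), Hey1 at 122 CPM (7 UMIs, 49.1 to 252) and Mfng at 209 CPM (12 UMIs, 108 to 366), and no Notch2, Notch3, Dll3 or Hes5 UMI was counted among 57334, which allows up to 52.3 CPM. That limit lies above the 31.1 CPM of Notch3 in pooled radial glia. The arterial ligand Dll4, from the wider list, had 7 UMIs in endothelial cells, from 2 of 7 embryos. With 1 mural and 0 endothelial sums of at least 20 cells in an embryo, no comparison between vessels and other gates was tested.

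**Figure D3:**
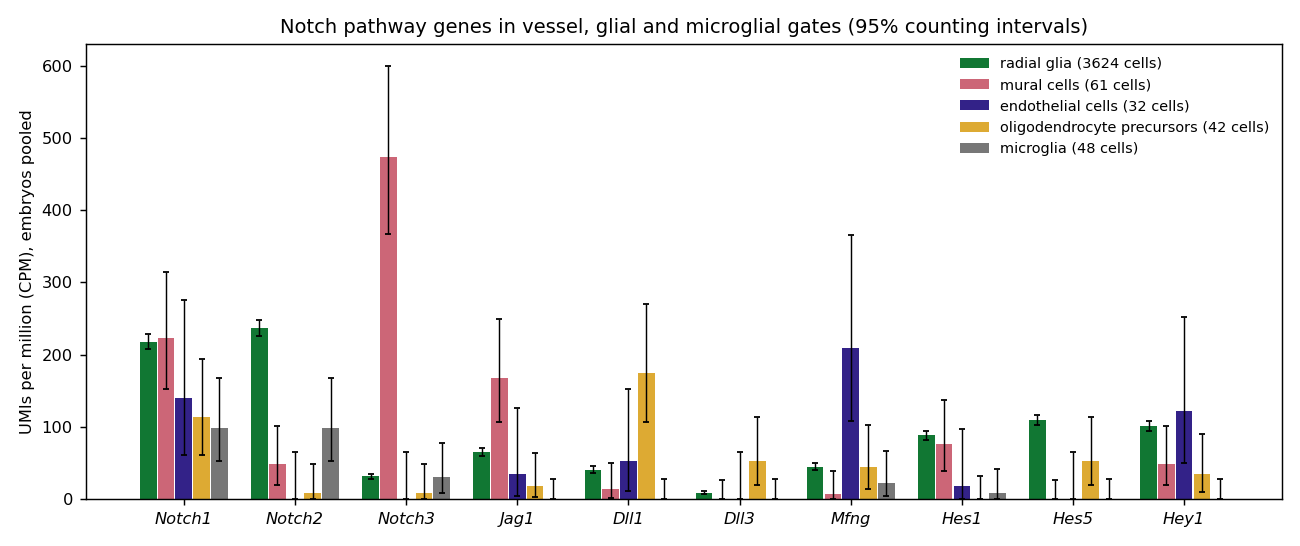
Pooled level over all embryos (y axis, unscaled CPM, linear from 0) of each gene in radial glia and in 4 small gates; bars are pooled values and lines are 95% exact Poisson intervals, which cover counting error only. Notch3 is highest in mural cells at 473 CPM and Dll1 in oligodendrocyte precursors at 174.5 CPM.

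Oligodendrocyte precursors held 174.5 CPM of Dll1 (20 UMIs, interval 107 to 270 CPM) against 40.5 CPM in pooled radial glia, and 52.4 CPM each of Dll3 and Hes5 (6 UMIs each). Of these 42 cells 71.4% also reached another list. Microglia held 13 UMIs each of Notch1 and Notch2 (98.0 CPM, interval 52.2 to 168 CPM), 4 of Notch3, all in 1 embryo, and 0 of Dll1, Dll3, Jag1, Hes5 and Hey1.

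The genes most like 4 of the members were sought over 29 gate-by-embryo sums, by Pearson's r of log2(CPM + 1), as a description of sums that share libraries and depth. For Dll1 they were Tfdp2 (r = 0.749), Gnai3 (0.736) and Efs (0.729). For Notch3 they were Pcx (0.965), Itgav (0.923) and Fstl1 (0.918), and Notch2 stood at 0.885. For Hes5 they were Ckb (0.940), Cnn3 (0.938) and Arhgap5 (0.930), and for Jag1 they were Litaf (0.901), Fam120a (0.892) and Calu (0.891). Leaving out the 1 mural sum raised r between Hes5 and Notch3 from 0.548 to 0.861 over 28 sums.

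Radial glial levels varied between embryos of the same genotype. For 7 of the 10 genes (6 without TMM scaling) the lowest and second lowest radial glial levels were those of control 16 and mutant 17. Notch2, for example, was 138 and 172 CPM in these and 242 to 321 CPM in the other 5; Hes1 was 74.3 and 44.9 CPM there and 92.6 to 109 CPM in the others. These are the libraries with the lowest radial glial and highest neuronal marker sums in this gate, and the part of that in the levels was not tested. The highest level was at least 1.41 times the lowest for every gene, 2.91 times for Hes5 and 6.89 times for Dll3, which rests on 64 UMIs.

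The question set by the genotypes was whether these genes differed after deletion of Ash1l in the Emx1 lineage. The targeted gene itself, over all kept cells, was 166, 217 and 207 CPM in controls 14, 15 and 16 and 157, 154, 165 and 125 CPM in mutants 10, 11, 12 and 17. On this scale the mutants lay below every control, as they did for 5.27% of all genes, but without TMM scaling mutant 12 (170 CPM) was above control 14 (162 CPM), and the change of −0.39 on the log2 scale (SE 0.12) did not pass adjustment (adjusted p = 0.336, edgeR). In excitatory neurons Ash1l was 121 to 153 CPM in mutants and 165 to 208 CPM in controls, without overlap on either scale. Every mutant was below every control for 4.94% of the genes tested there. The ranges overlapped in radial glia (115 to 182 and 164 to 227 CPM). They also overlapped in interneurons, largely outside the Cre lineage, with means of 197 CPM in mutants and 290 CPM in controls. Which part of the transcript was deleted is not given in the sources used here, so UMIs of Ash1l need not report the deletion.

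No Notch pathway gene was called between genotypes. Over all cells 0 of 10 passed in edgeR and in DESeq2, with 0.0233% of 12893 genes called by edgeR; 2 of the 10, Notch2 and Notch3, had an unadjusted p under 0.05, as did 1350 of the 12893 genes. DESeq2 can leave a gene without an adjusted p, and such a gene counts here as not passed. The median log2 difference of the 10 genes was 0.17, against 0.00289 over all genes. The largest shift for its error was that of Notch2: 46.7, 50.8 and 35.6 CPM in controls 14, 15 and 16, and 67.6, 71.5, 86.6 and 47.1 CPM in mutants 10, 11, 12 and 17. Mutant 17 lay within the control range and the other 3 mutants above it. The log2 difference was 0.62 (SE 0.18, unadjusted p = 0.00300, adjusted p = 0.322). It passed in 1 of 12 alternatives, the fit without a filter on low counts (0.60, adjusted p = 0.00303), in which 165 genes were called in place of 3. Without mutant 17 its adjusted p was 0.0518 and without control 15 it was 0.820.

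**Figure D4:**
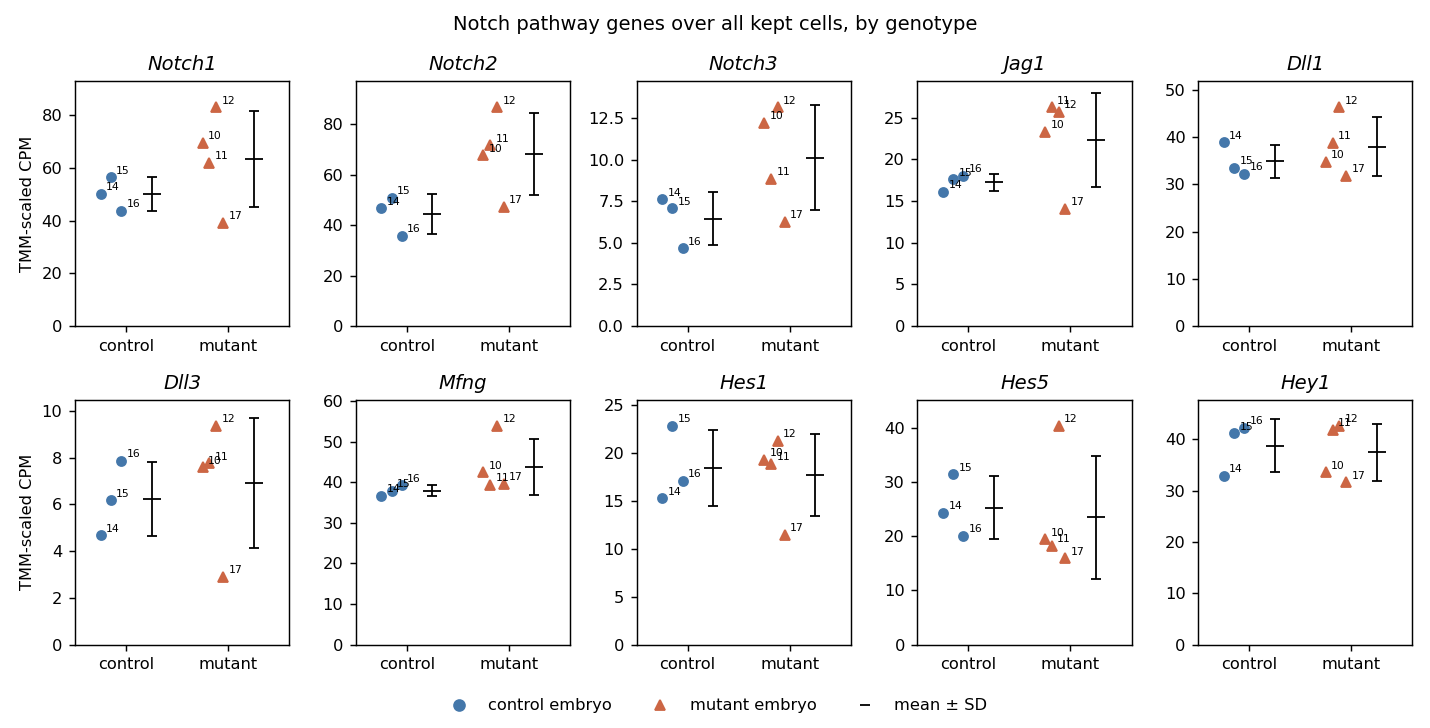
Level of each gene over all kept cells (y axis, TMM-scaled CPM, linear from 0) in the 3 control and 4 mutant embryos, with replicate numbers beside the points and mean ± SD beside each group. Mutant 17 is the lowest mutant for 9 of the 10 genes, all but Mfng (10 of 10 unscaled), and Mfng is the gene whose groups do not overlap on this TMM scale (36.6 to 39.3 CPM against 39.3 to 53.9 CPM), though they overlap unscaled.

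Notch3, at 7.63, 7.09 and 4.67 CPM in controls and 12.2, 8.87, 13.2 and 6.27 CPM in mutants in the same order, gave 0.66 (SE 0.27, adjusted p = 0.432). Jag1 was 16.1, 17.6 and 18.0 CPM in controls and 23.3, 26.2, 25.7 and 14.1 CPM in mutants (log2 difference 0.37, SE 0.19, adjusted p = 0.531). Mutant 17 lay within the control range for Notch3 and below it for Jag1. Mfng was above every control in every mutant on the TMM scale, as were 4.52% of all genes, with mutant 11 and control 16 nearly equal (39.3 CPM each); without scaling mutant 17 (38.5 CPM) was below control 16 (39.1 CPM). It had a log2 difference of 0.21 (SE 0.13, adjusted p = 0.589). The remaining genes differed by less than their spread, with log2 differences of 0.34 for Notch1, 0.12 for Dll1, 0.13 for Dll3, −0.06 for Hes1, −0.10 for Hes5 and −0.05 for Hey1. Over all cells, a larger share of a cell type and more RNA per cell cannot be told apart. Radial glia made up 16.9% ± 1.24 of mutant cells (SD, n = 4) and 14.4% ± 1.27 of control cells (n = 3; exact two-sided permutation p = 0.0857, adjusted over 4 gates p = 0.171). Excitatory neurons, which hold little of these receptors, made up 31.1% ± 2.91 and 39.7% ± 4.45, without overlap (exact permutation p = 0.0286, the smallest that 35 splits allow, adjusted p = 0.114).

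Within radial glia 0 of 10 genes passed (0.00971% of 10302 genes called), 0 had an unadjusted p under 0.05 (4.93% of all genes), and DESeq2 called 0 of the 10. Notch2 was 263, 242 and 138 CPM in controls 14, 15 and 16 and 270, 289, 321 and 172 CPM in mutants 10, 11, 12 and 17, so the ranges overlapped; the log2 difference was 0.32 (SE 0.21, adjusted p = 0.967). Notch3 gave 0.53 (SE 0.29) and Jag1 0.35 (SE 0.23), both with an adjusted p of 0.967. The log2 differences of Hes1 and Hes5 were −0.21 (SE 0.22) and −0.24 (SE 0.26), each with an adjusted p of 0.970. Summed mural cell markers in this gate were 67.8 to 79.5 CPM in mutants and 59.8 to 63.3 CPM in controls, without overlap; their part in the Notch3 difference was not tested.

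In intermediate progenitors 5 of the 10 genes passed the filter and 0 were called (0.0633% of 7895 genes called; 2 with an unadjusted p under 0.05, as had 6.37% of all genes; DESeq2 called 0 of these). Notch2 was 16.8, 19.0 and 18.4 CPM in controls and 37.5, 43.2, 37.3 and 18.8 CPM in mutants 10, 11, 12 and 17 (log2 difference 0.90, SE 0.37, adjusted p = 0.755). Mutants 10, 11 and 12 lay above every control and mutant 17 within the control range. Hey1 was 52.9, 63.3 and 44.6 CPM in controls and 35.7, 45.9, 33.1 and 29.2 CPM in mutants (−0.57, SE 0.28, adjusted p = 0.778), with mutant 11 inside the control range. In excitatory neurons 0 of 9 tested genes were called (0.0356% of 11244 genes called; 10.1% with an unadjusted p under 0.05, among them Notch2, with 0.68, SE 0.26, adjusted p = 0.425; DESeq2 called 0). In interneurons 0 of 3 were called, as were 0% of 6904 genes by edgeR, against 1 gene by DESeq2 and 461 (6.68%) at an unadjusted p under 0.05.

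**Figure D5:**
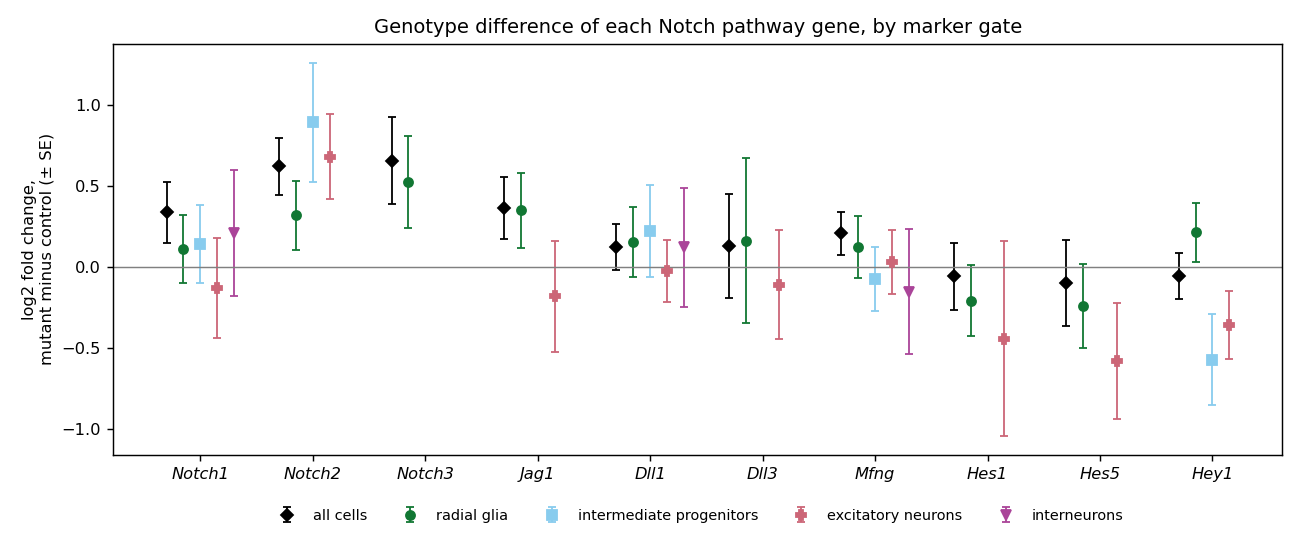
Log2 fold change, mutant minus control (y axis, linear, points with ± SE from edgeR), of each gene that passed the filter over all cells and in each gate. Notch2 is above 0 over all cells (0.62) and in the 3 gates where it was tested, and Hey1 lies above 0 in radial glia and below 0 in intermediate progenitors and excitatory neurons; none of the values passed adjustment.

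Whether the genotype difference itself differed between radial glia and excitatory neurons was tested by an interaction term, with the embryo as a fixed term. It was called for 0 of 10 genes and 0% of 11553 genes by edgeR, the tool run for it, and 363 genes (3.14%) had an unadjusted p under 0.05. Hey1 came closest, with a difference of 0.55 on the log2 scale (SE 0.23, unadjusted p = 0.0288, adjusted p = 1). Of the wider list, 0 of 48 genes over all cells, 0 of 40 in radial glia, 0 of 30 in intermediate progenitors, 0 of 43 in excitatory neurons and 0 of 26 in interneurons were called by edgeR, with 2, 0, 1, 2 and 0 at an unadjusted p under 0.05. DESeq2 also called 0 in each, though over all cells it gave an adjusted p for 20 of the 48 and in excitatory neurons for 35 of the 43.

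The share of cells with a pathway UMI did not differ by genotype beyond its spread either. At 1000 UMIs a receptor was seen in 34.6, 36.4 and 19.8% of radial glia in controls 14, 15 and 16 and in 33.9, 41.3, 43.9 and 22.4% in mutants 10, 11, 12 and 17 (exact permutation p = 0.486, adjusted over 4 shares p = 0.800). The mean difference was 5.08 percentage points, and −0.142 without control 16. A ligand was seen in 10.7% ± 3.19 of mutant and 9.33% ± 1.97 of control radial glia (exact permutation p = 0.543, adjusted p = 0.800). In intermediate progenitors the ligand shares were 9.44% ± 4.04 and 7.93% ± 2.32 and the receptor shares 9.50% ± 2.85 and 9.15% ± 1.91 (exact permutation p = 0.600 and 0.829, adjusted p = 0.800 and 0.829).

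The 10 genes lie on 7 chromosomes of mm10 (GENCODE M21). Notch1 spans 26457903 to 26516663 of chromosome 2, Notch2 98013527 to 98150361 of chromosome 3 and Notch3 32120820 to 32166852 of chromosome 17. Dll1 lies at 15367354 to 15376872 of chromosome 17, Dll3 at 28293553 to 28302238 of chromosome 7, Jag1 at 137081456 to 137116644 of chromosome 2 and Mfng at 78755882 to 78773475 of chromosome 15. Hes1 lies at 30064384 to 30067796 of chromosome 16, Hes5 at 154960923 to 154962371 of chromosome 4 and Hey1 at 8663359 to 8667256 of chromosome 3. Exons of Notch1, Notch3, Dll1 and Hes5 overlap genes on the other strand that were also counted. Those had 107 and 5 UMIs beside 2714 of Notch1, 8 beside 395 of Notch3, 95 beside 1746 of Dll1 and 20 beside 1172 of Hes5. Whether counting used strand is not given in the sources used here, so such reads could not be told apart if it did not.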

How the data were processed

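The authors deposited 1 table of whole-number UMI counts per library (genes by barcodes, not normalised; Seq-Well, per the labels' protocols). Alignment used STAR and mm10, per the submitters' processing notes; the annotation, strand setting, UMI collapsing and barcode selection: not given in the sources used here. Groups came from the sample titles. The genes, lists and tests were chosen with earlier results of these data known.

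Kept cells (at least 500 genes, mitochondrial share at most 10%) were gated to the list of which the largest share of markers had a UMI, with minimums of 3 markers (2 for intermediate progenitors); ties stayed ungated. No doublet caller was run. UMI counts were summed per embryo, with at least 20 cells per gate. The fits by gate took the 4 large gates only. The single mural sum, of 20 cells, was left out of them but entered the correlations. The planned contrasts with vessel gates were not run. The main test was edgeR 4.0.16 (quasi-likelihood, TMM, filterByExpr, two-sided, Benjamini-Hochberg over all genes tested, threshold 0.05), after a check on simulated counts. Embryo was a term between gates. Embryo levels are CPM on TMM-scaled library sizes of the genes tested; pooled, cell cycle and marker levels are unscaled. Shares were compared by exact permutation over 35 splits. Alternatives were DESeq2 1.42.0, other size factors, filters and gate minimums, each embryo left out, and, chosen after seeing the data, embryos of 1 genotype only between gates and levels without TMM scaling. All pathway genes were named. Of the wider list, up to 2 per role with the largest change among those past the threshold were named, though not for every comparison. Kept UMIs per embryo were 5316785 to 9460628. Embryos of 1 litter are the replicates.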

Additional observations from a re-analysis of the deposited data

Results flagged for a closer look

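Among 58 levels and shares looked at over the 4 mutant embryos, 5 had 1 embryo far from the other 3 (by Dixon's ratio of gap to range, at the 95% level); chance alone gives about 1 in 20 such groups. Hes5 over all cells was 40.5 CPM in mutant replicate 12 and 15.9 to 19.5 CPM in the other mutants. In radial glia, Hes1 was 44.9 CPM in mutant replicate 17 and 92.6 to 97.7 CPM in the others. Mfng in excitatory neurons was 30.5 CPM in mutant replicate 12 and 19.5 to 20.6 CPM in the others. In interneurons, Notch3 was 4.28 CPM in mutant replicate 12 and Hes1 was 2.84 CPM in mutant replicate 10, with 0 in the other 3 mutants; these values rest on 2 and 1 UMIs. Mutant replicate 12 also had the highest sum of meningeal and choroid plexus markers in radial glia, at 688 CPM against 11.8 to 89.6 CPM in the other 6 embryos, and the part of this in the levels was not tested.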

How the results depend on the processing

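Differences of the pathway genes from radial glia kept their direction and call under every alternative with a result, except those of Dll1, given beside its values. Notch3 had a result in 15 of the 17 alternatives. Of 604 values of the pathway genes between gates under alternatives, 572 kept direction and call, and of 506 by genotype, 457 did. By genotype, a gene without an adjusted p in DESeq2 counted as not called. No paired analysis was possible because the genotypes share no replicate number. Without TMM scaling of the levels, a choice made after seeing the data, the genotypes of Mfng and Ash1l overlapped over all cells, as given beside their values, and so did those of Ash1l in intermediate progenitors; of the pairs of gates that did not overlap for a pathway gene, none came to overlap. Where values below changed, the cause was not tested unless fewer embryos or genes entered by construction.

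The number of genes called by genotype over all cells (3) was 21 with DESeq2, 165 without a filter on low counts, 5 at a mitochondrial share of at most 5%, and 3 to 26 with 1 embryo left out. In radial glia (1) it was 3 with DESeq2, 21 without a filter, 2 at 300 genes per cell, 0 at the 5% share, 3 with gate minimums raised by 1, 0 without cells reaching 2 lists, and 0 to 7 with 1 embryo left out. In intermediate progenitors (5) it was 26 without a filter, 2 with raised minimums, 2 without cells reaching 2 lists, and 2 to 13 with 1 embryo left out. In excitatory neurons (4) it was 12 with DESeq2, 128 without a filter, 7 at the 5% share, and 2 to 18 with 1 embryo left out. In interneurons (0) it was 1 with DESeq2, 12 without a filter, 5 at the 5% share, 1 without cells reaching 2 lists, and 0 to 3 with 1 embryo left out. The interaction (0) called 1 gene with raised minimums. In control embryos only, a choice made after seeing the data, 2039 genes were called between intermediate progenitors and radial glia (3556 in all embryos), 2607 between excitatory neurons and intermediate progenitors (4248), and 1904 between interneurons and excitatory neurons (3259); mutant embryos only gave 1965 for the last.

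Uncalled log2 differences changed sign as follows. At the 5% share, over all cells, Dll3 was −0.11, Hes1 0.068, Hes5 0.21 and Hey1 0.022; Mfng in intermediate progenitors was 0.071, and Dll1 was 0.21 in excitatory neurons and −0.019 in interneurons. At 300 genes per cell Dll1 in interneurons was −0.000962. With minimums lowered, Mfng was 0.037 in intermediate progenitors and 0.020 in interneurons, and Dll1 was 0.038 in excitatory neurons. With minimums raised, Mfng in intermediate progenitors was 0.10, Dll1 in interneurons −0.051, the interaction of Hes1 −0.13, and, between interneurons and excitatory neurons, Notch2 was 0.079 and Hes5 0.063. Without cells reaching 2 lists, Dll1 in radial glia was −0.031, Hes5 in excitatory neurons 0.064 and Mfng in interneurons 0.048. In mutant embryos only, Hey1 between interneurons and excitatory neurons was 0.0098.

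With 1 embryo left out, ranges over all cells were −0.064 to 0.38 for Dll3, −0.17 to 0.13 for Hes1, −0.50 to 0.10 for Hes5 and −0.16 to 0.013 for Hey1. In radial glia they were −0.071 to 0.30 for Notch1 and −0.11 to 0.88 for Dll3. In intermediate progenitors they were −0.057 to 0.34 for Notch1, −0.0088 to 0.44 for Dll1 and −0.22 to 0.17 for Mfng. In excitatory neurons they were −0.42 to 0.14 for Notch1, −0.20 to 0.12 for Dll1, −0.26 to 0.10 for Dll3, −0.47 to 0.24 for Jag1 and −0.13 to 0.17 for Mfng. In interneurons they were −0.086 to 0.43 for Dll1 and −0.79 to 0.16 for Mfng. Between interneurons and excitatory neurons they were −1.30 to 0.010 for Notch3 and −0.34 to 0.15 for Hes5. For the interaction they were −0.23 to 0.67 for Notch1, −0.11 to 0.77 for Dll3, −0.048 to 0.91 for Jag1, −0.30 to 0.78 for Hes1 and −0.039 to 0.22 for Mfng.

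Among share differences in percentage points, mutant minus control, the intermediate progenitor gate (0.897) was 2.15 with lowered minimums. The interneuron gate (0.0884) was −0.563 with raised minimums and −0.674 to 0.990 with 1 embryo left out. Unthinned, the ligand share of radial glia (1.35) was −0.583 and the receptor share of intermediate progenitors (0.346) was 3.33. With 1 embryo left out, receptor shares ranged from −0.142 to 9.41 in radial glia and from −0.341 to 1.69 in intermediate progenitors. Sparse counts limit Dll3, Notch3 and the 4 small gates.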
